A study of Mus musculus with 4 samples.

Results

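The regions described here are the Zeb1 peaks of mouse chromosome 8 (Chr. 8), taken as all rows of the deposited peak list that name this chromosome. They are 1323 of 17435 peaks, or 7.59% of the list on 4.74% of the bases of the genome. Chromatin came from mES-D3, an established mouse embryonic stem cell (mESC) line grown without feeders in ground state medium (GS), which held LIF (20 ng/mL) and inhibitors of MEK (PD0325901, 1 μM) and GSK-3 (CHIR99021, 3 μM), at passages p5-p8 by the labels. The cells were cross-linked, and Zeb1 was precipitated with antibody H-102 in 3 ChIP libraries, beside 1 input library made with no antibody. All libraries share the line and the medium, so the series holds no cells without Zeb1 and no second condition. The chromosome was selected on the number of its peaks, so that number is a description. The list gives 1 mean of reads for each peak and no value per library, so that no spread between libraries can be given and no difference was tested. The authors describe the scores as means over the ChIP replicates, which does not account for the numbers of values found below.

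Zeb1 is a zinc finger transcription factor that binds E-box sequences and recruits corepressors, and it is best known for repressing the E-cadherin gene Cdh1 during epithelial to mesenchymal transition. Cdh1 lies on Chr. 8, in a cluster with other cadherin genes. E-cadherin holds the cells of an mESC colony together, and GS medium keeps them in the naive state of pluripotency.

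The Cdh1 peak, chr8:106602551-106604900 (GRCm38), spanned the start of the gene, with its centre in intron 1 of 15, 375 bp downstream of the transcription start site (TSS). Its sequence in the reference held 5 matches to the Zeb1 motif, which is any of CNCACCTG, CNTACCTG, TNCACCTG and TNTACCTG on either strand. They are shown because Cdh1 is the reference target of Zeb1, as windows of 30 bases read 5′ to 3′ on the strand of the match, with the 8 bases of the match in capitals. The first 3 lay upstream of the TSS, by 555, 59 and 11 bp, and the other 2 in intron 1, 193 and 398 bp downstream.
Cdh1, chr8:106602781-106602810, plus strand: acaattccaggCCCACCTGagttggaaaac
Cdh1, chr8:106603277-106603306, minus strand: ttggctggggaCGCACCTGcaggtggcagc
Cdh1, chr8:106603325-106603354, plus strand: gtgcctgcgggCTCACCTGgcggccgcagc
Cdh1, chr8:106603529-106603558, minus strand: aggaccctccaCATACCTGcagcaggagca
Cdh1, chr8:106603734-106603763, minus strand: cgtggcgcgccCCCACCTGggaacctgcgc

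The peak of Klf2, a Krüppel-like factor of the naive pluripotency network, also held 5 matches, 755 to 1682 bp downstream of its TSS, in coding exons 2 and 3 and in intron 2. A match in exon 2 and one in intron 2 are shown beside the single match in the peak of Cdh13, which had the highest enrichment of the cadherin peaks at a TSS, and the single match in the peak of Hand2, a heart and limb bHLH factor.
Klf2, chr8:72320044-72320073, plus strand: ctgggcttggcTCCACCTGccacgcgcggt
Klf2, chr8:72320229-72320258, minus strand: gaggccaggcgCCCACCTGtgtgtgtacgc
Cdh13, chr8:118283885-118283914, minus strand: ggctcacattcCCTACCTGggacagcagga
Hand2, chr8:57320673-57320702, plus strand: cgaaataatacTGTACCTGgtttaagattc
A match describes the letters of the reference only. It was found in 1095 of the 1323 Chr. 8 peaks, or 82.8% (95% Wilson interval 80.6 to 84.7%, counting error only). The share was 76.0 ± 2.81% on the other 18 autosomes (mean ± SD over chromosomes, used for all comparisons here) and was highest on Chr. 8 of the 19 autosomes. Longer peaks hold more matches, and the median Chr. 8 peak was 2050 bp long, more than on any other autosome (1700 to 2000 bp). Of 4 classes of length, Chr. 8 had rank 1 of 19 among peaks of at least 1900 and under 2400 bp, with 87.6% against 79.2 ± 3.46%, and rank 9 among those of up to 1500 bp, with 66.4% against 65.2 ± 3.96%. In the class between these and in that of 2400 bp and over it had rank 3, and over all peaks of 1500 to 2400 bp rank 1, with 82.7% against a mean of 74.955 and an SD of 2.89%. Per kb of peak the matches numbered 0.973 against 0.867 ± 0.0622, a measure chosen after the data were seen. Among RefSeq promoter windows of 300 bases, a match was present in 19.9% of 1442 on Chr. 8 and in 16.6% of 29954 on the other autosomes, so promoters without regard to peaks differed in the same direction.

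Zeb1 peaks were dense along Chr. 8. Chr. 8 had 10.5 peaks per Mb against 7.04 ± 2.03 on the other autosomes, which was second to Chr. 11 with 11.8. Set against genes, Chr. 8 was first, with 104 peaks per 100 RefSeq genes against 66.8 ± 8.06, and the next chromosome, Chr. 15, had 81.9. Of 1271 genes of Chr. 8, 779 had a peak centre within 5 kb of a TSS, or 61.3% (Wilson 58.6 to 63.9%), beside 46.8% of all genes of all chromosomes. The other autosomes ranged from 40.1% on Chr. 7 to 56.0% on Chr. 11, with 48.1 ± 4.90%. For protein-coding genes the share was 67.5%, from 684 of 1014, against 53.6 ± 5.65%, and 51.5% of all protein-coding genes. With peaks of an enrichment of at least 5 only, Chr. 8 fell to second place with 47.0% of genes, behind Chr. 11 with 47.6%, where 38.8% of all genes passed. Chr. 8 was chosen for its number of peaks, and peaks of 1 list are not replicates, so these are descriptions with no test.

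**Figure D1:**
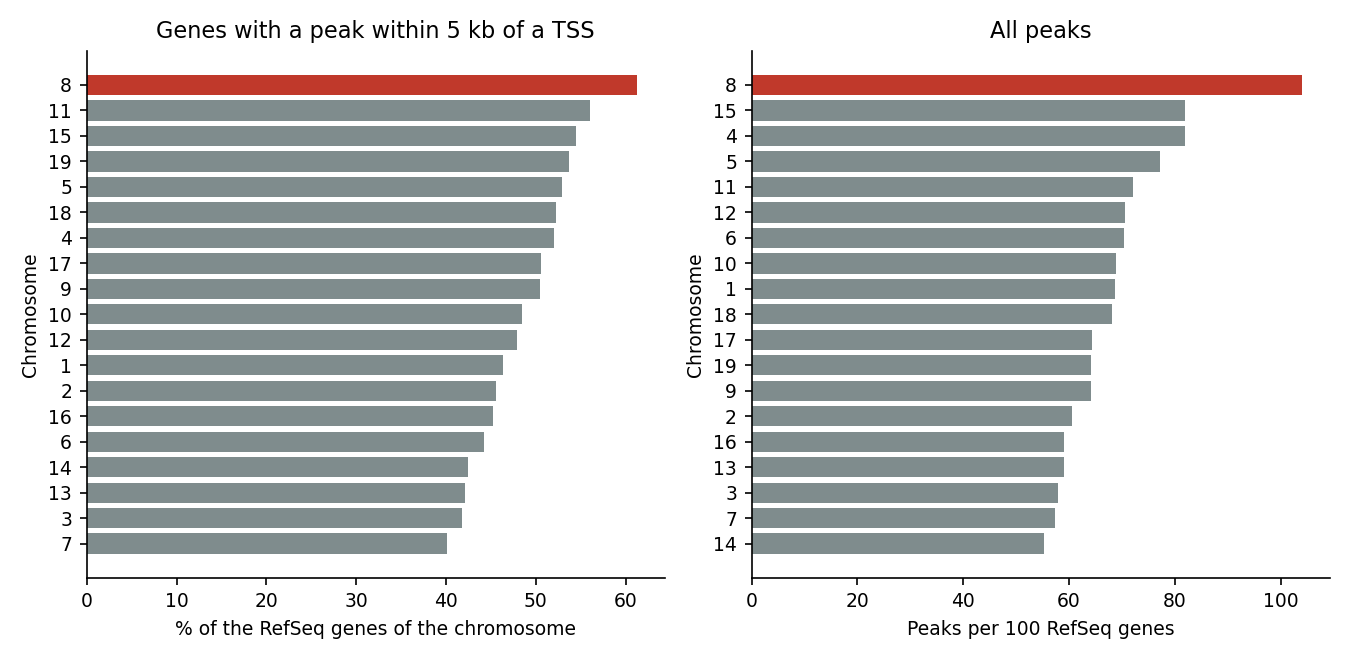
Bars give, for each of the 19 autosomes, the percent of RefSeq genes with a Zeb1 peak centre within 5 kb of a TSS (left) and the number of peaks per 100 genes (right), sorted by value, with Chr. 8 in red. Chr. 8 is the top bar in both panels, at 61.3% and at 104 peaks per 100 genes.

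The higher share of genes with a peak was not limited to gene-dense sequence. Chr. 8 has 29.5% of its genes in the densest of 4 classes (31 to 87 other genes within 500 kb), against 24.7% on the other autosomes. In that class 66.7% of Chr. 8 genes had a peak (Wilson 61.7 to 71.2%) against 46.3 ± 14.1%, and in the class of 10 to 17 neighbours 66.0% against 48.9 ± 5.69%, both first of 19. In the densest class the next was Chr. 17 with 62.4%, inside the interval of Chr. 8. The lowest, Chr. 12 with 1.33%, lowered that mean and widened its SD. In the sparsest class, of 0 to 9 neighbours, the share was 51.7% against 45.1 ± 4.08%, second to Chr. 9. With 18 to 30 neighbours it was 60.1% against 48.8 ± 9.71%, rank 3 of 19.

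**Figure D2:**
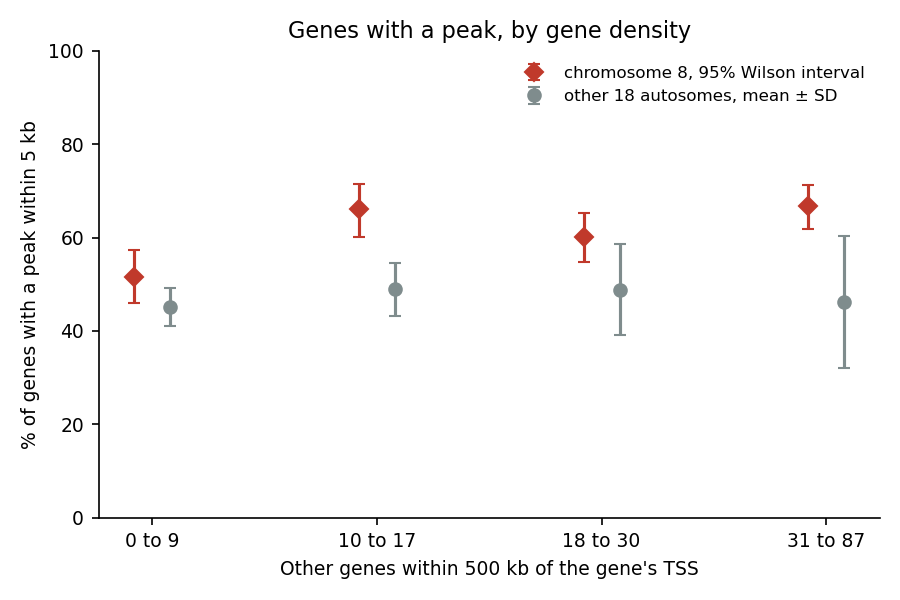
Percent of genes with a Zeb1 peak within 5 kb of a TSS, by the number of other genes within 500 kb of the TSS. Red diamonds are Chr. 8 with 95% Wilson intervals and grey points the mean ± SD of the other 18 autosomes. Chr. 8 lies above the mean in all 4 classes, by the least in the sparsest (51.7 against 45.1%).

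The peaks at the TSS and those far from it differed in how far Chr. 8 stood from the other autosomes. Of the Chr. 8 peaks, 699 lay within 5 kb of the TSS of their assigned gene, or 52.8% (Wilson 50.1 to 55.5%), the lowest share of the 19 autosomes, where the others had 62.8 ± 4.23% and Chr. 6, the next, 54.4%. The median distance to the TSS was 3821 bp against 729 ± 336 bp. With 52.8% of peaks near, this median fell close to the 5 kb limit, and it does not describe either group. Within 5 kb the median was 265 bp against 232 ± 24.6 bp. Beyond 5 kb it was 27909 bp against 41162 ± 20332 bp, rank 14 of 19 from the furthest. Per 100 genes, however, Chr. 8 was first on both sides of that limit. Peaks within 5 kb numbered 55.0 per 100 genes against 41.8 ± 4.74, a comparison added after the data were seen. Peaks beyond 5 kb and outside LINE-1 elements, a set defined after the data were seen, numbered 470, or 37.0 per 100 genes against 15.6 ± 4.45, and Chr. 4, the next, had 24.3. LINE-1 retrotransposons held the other peaks, 155 in all with 1 of them within 5 kb.

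Along the gene, the offset was smallest at the TSS itself. The 500 bp downstream of the TSS held 27.7 peaks per 100 genes against 23.8 ± 2.54, a ratio of 1.17, and the 500 bp upstream 9.36 against 7.76 ± 1.16, a ratio of 1.21. From 1500 to 3000 bp upstream the ratio was 2.39, from 1500 to 3000 bp downstream 2.25 and from 5 to 10 kb on either side 2.28, with 9.60 peaks per 100 genes against 4.22 ± 1.63. It was 2.08 from 10 to 50 kb and 1.60 beyond 100 kb, where Chr. 8 had rank 3. By the authors' classes, introns held 220 Chr. 8 peaks, or 16.6% against 9.22 ± 1.34%, the highest of the 19 autosomes. Exons held 90 (6.80% against 4.71 ± 1.37%), transcription termination sites 54 (4.08% against 2.21 ± 1.10%) and intergenic sequence 208, at 15.7% against 17.4 ± 4.83%. The smaller classes were 35 peaks at a further TSS, 15 in a 3′ UTR and 2 in a 5′ UTR, since the promoter class, with the 699 peaks above, takes all within 5 kb.

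**Figure D3:**
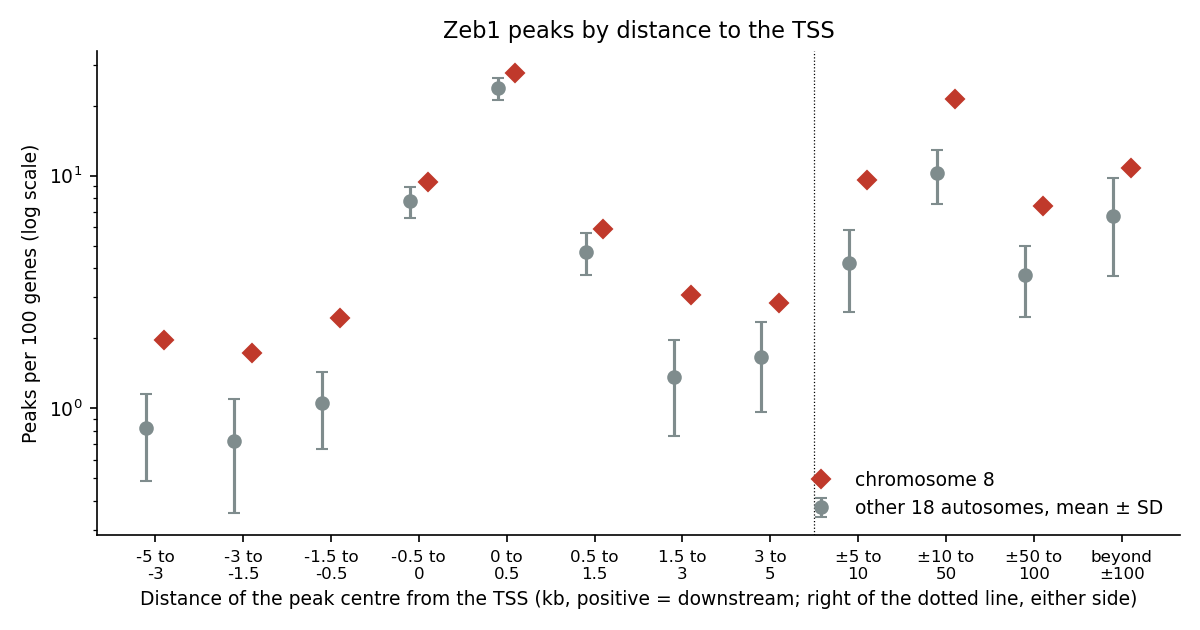
Zeb1 peaks per 100 RefSeq genes (log scale) by distance of the peak centre from the TSS, signed up to 5 kb and on either side beyond it. Red diamonds are Chr. 8 and grey points the mean ± SD of the other 18 autosomes. The points are closest in the 500 bp on each side of the TSS (27.7 against 23.8 downstream) and, on the log scale, furthest apart 3 to 5 kb upstream (1.97 against 0.819).

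The offset of Chr. 8 was largest among peaks of low enrichment over input. An enrichment of at least 5 was reached by 852 of its peaks, or 64.4%, beside 74.0% of all peaks of the list. At an enrichment of 2 to 4, Chr. 8 had 18.6 peaks per 100 genes against 8.19 ± 2.05, a ratio of 2.27. The ratio was 1.84 from 4 to 6, 1.45 from 6 to 8 and 1.22 from 8 to 10. At 10 and over it was 1.00, with 9.83 peaks per 100 genes against 9.82 ± 1.90, and Chr. 8 was eighth of 19. Within 5 kb of the TSS the ratio went from 2.39 in the lowest band to 0.967 in the highest. Beyond 5 kb and outside LINE-1 it went from 4.07 to 1.27. Treatment reads rise with the length of a peak and were not corrected for it. Chr. 8 peaks with 100 or more of them numbered 166, or 13.1 per 100 genes against 4.32 ± 1.25, a ratio of 3.02. Chr. 8 was first in this band both near the TSS and far from it. Near the TSS it had rank 11 at 20 to 30 reads, with 2.12 peaks per 100 genes against 2.08 ± 0.510. At 30 to 50 reads it had rank 16 there, with 15.1 against 16.8 ± 2.27.

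**Figure D4:**
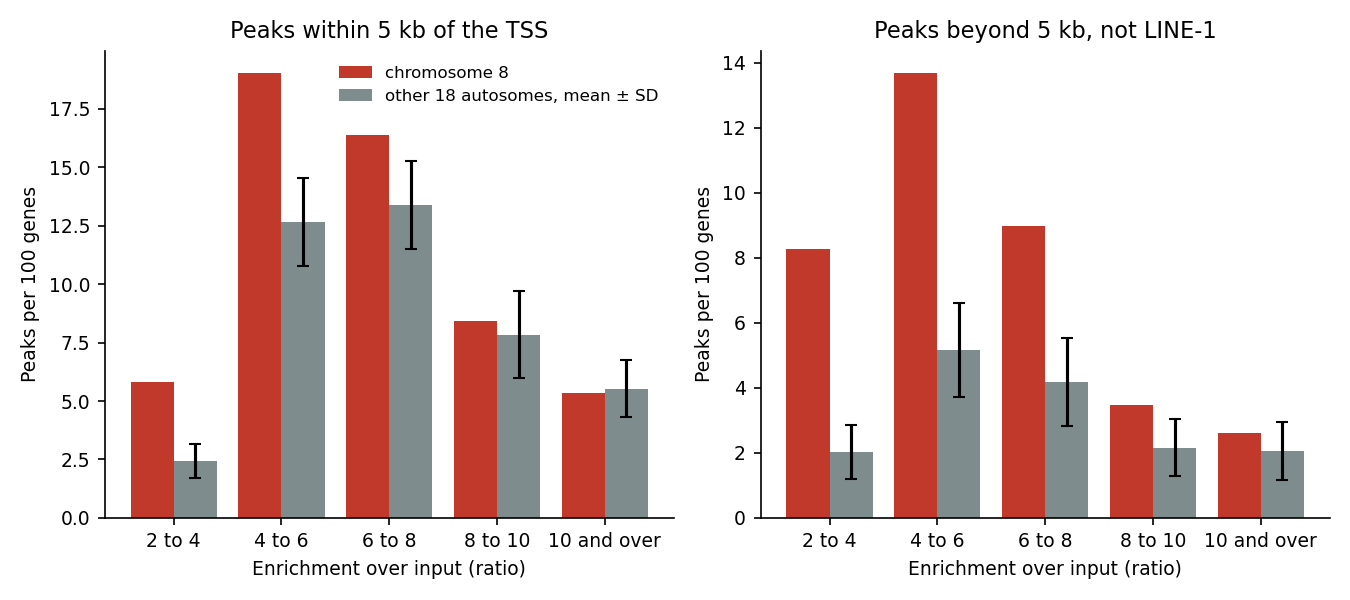
Zeb1 peaks per 100 genes by enrichment over input, within 5 kb of the TSS (left) and beyond 5 kb outside LINE-1 (right). Red bars are Chr. 8 and grey bars the mean ± SD of the other 18 autosomes. The ratio of the bars is largest at an enrichment of 2 to 4, with 5.82 against 2.43 on the left and 8.26 against 2.03 on the right, and smallest at 10 and over.

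Reads per kb, the deposited mean reads divided by the length of the peak, differed with the place of the peak. They are no true read density. Both read columns of a Chr. 8 peak became whole, to the 6 digits deposited, when multiplied by a number from 1 to 27, here called the divisor, which is not the number of libraries. It was 7 in 423 peaks, 2 in 354, 5 in 240 and over 7 in 58. Peaks in this last group were long, with a median length of 5300 bp against 2000 bp at divisors up to 7. Among the lower divisors length did not rise steadily, with 4950 bp at 6 and 2200 bp at 7. Divisors over 7 were found in 4.38% of Chr. 8 peaks and 1.92% of those of the other autosomes, and peaks with a divisor of 7 were therefore also compared on their own, a choice made after the data were seen. Over all Chr. 8 peaks the median input was 8.95 reads per kb against 8.08 ± 0.646, second to Chr. 6 with 10.3 and just above Chr. 16 with 8.92. Within 5 kb of the TSS it was 9.88 against 8.32 ± 0.751, a ratio of 1.19, with Chr. 6 at 11.1 and, apart from Chr. 6, no other autosome over 9.13. With peaks of 1500 to 2400 bp near the TSS, chosen after the data were seen, it was 10.8 against 8.72 ± 0.875. Beyond 5 kb and outside LINE-1 the input of Chr. 8 was 7.29 reads per kb against 7.26 ± 0.690, a difference far within the spread of the autosomes. With a divisor of 7, it was 10.6 against 8.45 ± 0.752 near the TSS, rank 2 of 19, and 8.19 against 7.37 ± 0.903 beyond 5 kb outside LINE-1, rank 3. In LINE-1 peaks it was 8.93 against 9.10.

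The treatment reads followed the same split. Over all peaks their median on Chr. 8, 24.2 reads per kb against 25.3 ± 0.891, was the lowest of the 19 autosomes, just under Chr. 10 with 24.3. From summed reads over summed lengths it was 25.9 against 26.3 ± 1.68, rank 10, and without LINE-1 peaks the median had rank 18. Within 5 kb of the TSS it was 28.5 against 27.0 ± 1.21, second to Chr. 6 with 31.2. Beyond 5 kb and outside LINE-1 it was 19.7 against 21.9 ± 0.953, the lowest of the 19. Among peaks with a divisor of 7 the treatment reads had rank 3 near the TSS, with 30.9 against 28.9 ± 1.33, and rank 13 far from it, with 24.5 against 25.6 ± 1.96. The median enrichment of Chr. 8 peaks was 5.89 against 6.55 ± 0.290, with only Chr. 6 lower at 5.55. Near the TSS, a comparison added after the data were seen, it was 6.26 against 6.77 ± 0.313. Thus Chr. 8 had more input and more treatment reads at the TSS than most autosomes, with less enrichment.

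Gain of a copy of Chr. 8 is a known recurrent change in cultured mESC, and the labels give no karyotype. As a scale, Chr. X, of which a male line such as D3 has a single copy, had 3.85 input reads per kb near the TSS, 0.462 of the mean of the 18 autosomes. This scale did not hold for other peaks, since the ratio of Chr. X was 0.619 over all peaks, 0.639 beyond 5 kb outside LINE-1 and 1.15 in LINE-1 peaks. Chr. 6 had 1.35 times the mean of the remaining ones near the TSS and 1.30 times beyond 5 kb outside LINE-1. Chr. 8 had 1.19 times the mean near the TSS, and 1.24 times with peaks of 1500 to 2400 bp there. Beyond 5 kb outside LINE-1 Chr. 8 had 1.00 times the mean, and with a divisor of 7 its input there was 8.19 against 7.37 reads per kb. Of Chr. 6 genes, 44.2% had a peak, below the mean of the autosomes. The peaks of Chr. 6 per 100 genes were 1.06 times the mean of the remaining ones. These are reads within called peaks only, and the part of copy number in the Chr. 8 counts was not tested.

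**Figure D5:**
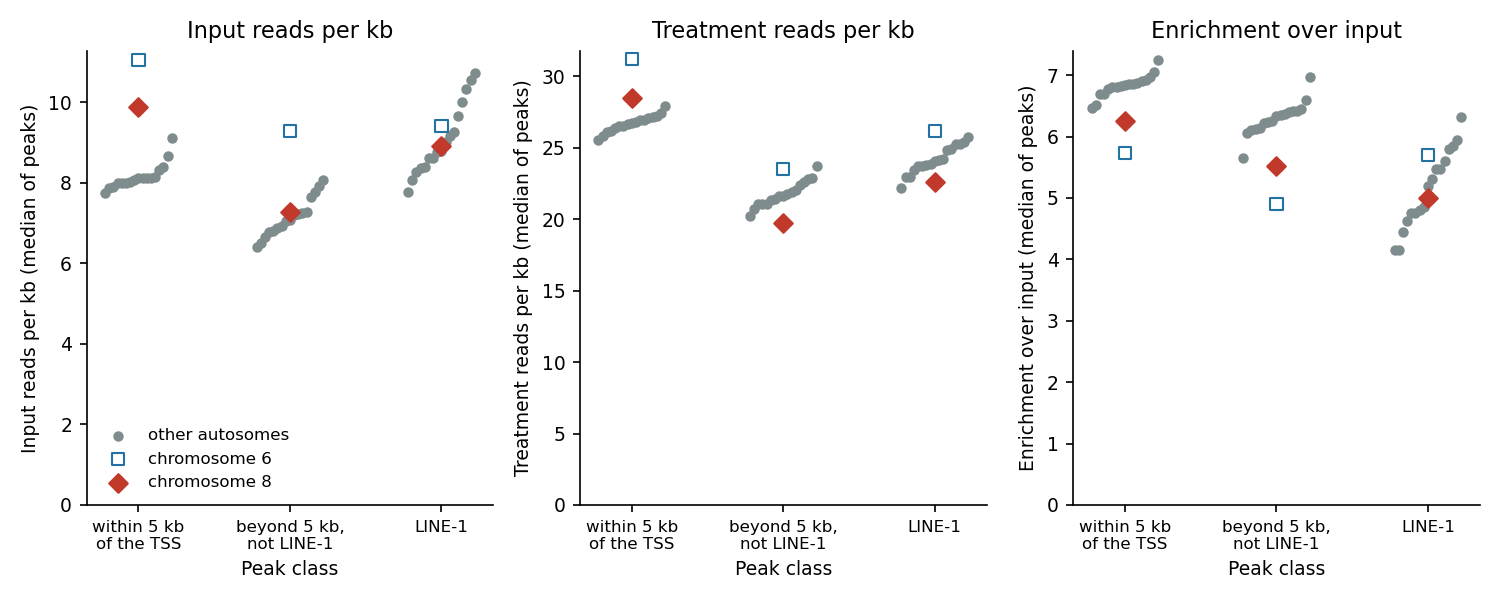
Median input reads per kb, treatment reads per kb and enrichment of the peaks of each autosome, for peaks within 5 kb of the TSS, beyond 5 kb outside LINE-1, and in LINE-1. The red diamond is Chr. 8, the blue square Chr. 6 and grey dots the other 17 autosomes. Chr. 8 lies second for input near the TSS (9.88) and among the dots for input far from it (7.29).

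Peaks of Chr. 8 also lay close to each other. A neighbouring peak was within 10 kb for 45.2% of peaks, against 29.5 ± 9.44% on the other autosomes, first before Chr. 7 with 44.3%. By the median gap to the nearest peak, Chr. 8 with 13750 bp came after Chr. 7 with 13475 bp. Close neighbours become more common as peaks per Mb rise, and Chr. 8 was chosen for its number of peaks. Within 50 kb it was 76.7%, second to Chr. 11 with 80.2%. Among peaks of an enrichment of at least 5 alone, 35.8% had such a neighbour within 10 kb where Chr. 8 had rank 4 of 19. Peaks joined where gaps were under 10 kb gave 725 single peaks and 180 runs of 2 or more, of which 32 runs of 5 or more held 237 peaks.

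The longest run, chr8:71455901-71544400, had 17 peaks in 88.5 kb, and 51.3% of its sequence lay in peaks. All 9 genes with a TSS there had a peak, among them Bst2, which encodes the antiviral protein tetherin, and Plvap, an endothelial diaphragm protein. Enrichment in the run was 3.15 to 8.70. A run of 12 peaks, chr8:70833001-70917700, reached from Arrdc2 to Map1s, a microtubule-associated protein gene, and all 8 of its genes had a peak. Peaks covered 57.4% of it. Runs were joined at gaps under 10 kb, so nearly any TSS inside lies close to a peak centre. Both gene counts therefore follow largely from how runs were defined. Another run of 12, chr8:120376301-120442400, held no TSS of a RefSeq gene. All of its peaks were assigned to Gse1, a coiled-coil protein gene found with corepressor complexes, whose assigned TSS lay 49066 to 111641 bp away. The authors' annotation places all 12 in intron 2 of 2 of an Ensembl gene, with the same identifier as the one it gives for the Gse1 introns. These peaks had 25 to 120 treatment reads and an enrichment of 2.5 to 13. With 18 peaks in 164 kb, Gse1 had the most of any Chr. 8 gene, and the strongest of them by reads, chr8:120534701-120540400, lay at a TSS of the gene with 209 treatment reads, an enrichment of 9.20 and 9 motif matches. The neighbouring A330074K22Rik had 15 peaks, which lay beside those of Gse1. Gaps of over 10 kb split the peaks of both names, so they are not 1 run. The peak of A330074K22Rik nearest to its TSS stood apart, with an enrichment of 20.5 against a median of 4.60 over the 15. Ier2, an immediate early gene, had 8 assigned peaks, but 7 of these lay within the neighbouring calcium channel gene Cacna1a and 1 at Ier2 itself. 1700018B08Rik had 8 peaks, with an enrichment of 4.50 to 12.3. March1 (Marchf1), a ubiquitin ligase gene, had 7, of which 6 were in LINE-1 elements.

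Genes of the lists chosen for this chromosome were read against the 67.5% of its protein-coding genes that had a peak. All genes of these lists code for proteins except Ces2d-ps, a transcribed pseudogene of the carboxylesterase cluster. The lists were made with results of these data known. For the 779 genes, the most enriched peak within 5 kb had a median enrichment of 6.66 and 67.7 treatment reads.

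Of 9 cadherin genes, 6 had a peak at a TSS, or 66.7%, close to the share of all protein-coding genes, with a median enrichment of 8.33. The Cdh1 peak had 123 treatment and 43.4 input reads, at an enrichment of 5.78. Its neighbour Cdh3, encoding P-cadherin, had 105 and 34.6, with an enrichment of 6.40. Thus the classical target of Zeb1 had the most treatment reads of the cadherins and the lowest enrichment. Cdh13, the atypical T-cadherin, had the highest enrichment of the cadherins, 16.04, from 49.6 treatment and 6.86 input reads. Cdh8 and Cdh11, cadherins of neural and mesenchymal cells, had enrichments of 10.5 and 9.70, and Cdh15, the muscle cadherin, 6.95 from 33.0 treatment reads. No peak lay within 5 kb for Cdh5, Cdh16 and Fat1, the endothelial, kidney and giant cadherins. Cdh5 had 1 peak over the gene, and its nearest peak was 41375 bp from the TSS. The nearest peak to a Cdh16 TSS was 5479 bp away.

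Among 5 genes of pluripotency and early embryo cells, Klf2 and Sall1 had a peak. Klf2 had 196 treatment and 32.7 input reads, at an enrichment of 12.1. Sall1, a zinc finger factor of the spalt family, had 187 and 34.6, at an enrichment of 11.4, with no motif match in its peak. Both are far above the median of the 779 genes in reads and in enrichment. Zfp42 (Rex1), a marker of the naive state, had its nearest peak 6159 bp from the TSS, outside the limit, although 1 peak overlapped the gene. The trophoblast-linked tripartite motif genes Triml1 and Triml2 had none within 100 kb.

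Developmental transcription factor genes nearly all had a peak, 20 of 21, with a median enrichment of 8.59 and 109 treatment reads. Foxc2, a forkhead factor of mesoderm and vessels, had an enrichment of 13.5 from 141 treatment reads. Its neighbours Foxf1 and Foxl1 had 8.57 and 11.95. Klf1, the erythroid Krüppel-like factor, had 11.6, and Zfpm1 (Fog1), the cofactor of Gata1, 10.5. Of the Iroquois homeobox genes, Irx5 had 11.4 from 183 treatment reads, Irx6 9.96 and Irx3 9.70. Hand2 had 9.76 from 77.7 treatment reads. The highest reads of the list were those of Junb, an AP-1 subunit gene, with 289 treatment and 70.7 input reads over a peak of 8350 bp, at an enrichment of 7.21. Rfx1 was lowest with 2.95, and Irf8, an interferon regulatory factor of myeloid cells, had no peak within 5 kb. Irf8 did have 1 peak over the gene, and its nearest peak was 15211 bp from a TSS.

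Of 21 genes for ligands, receptors and signal transducers, 18 had a peak, with a median enrichment of 7.49. Dusp4, a phosphatase that turns off ERK, had 192 treatment reads and an enrichment of 9.46. Nrg1, a ligand of ErbB receptors, had 130 reads and 9.17. Hhip, which binds Hedgehog ligands, had 8.96 from 55.8 reads, and Gas6, a ligand of TAM receptors, 9.40 from 75.8. These 4 were chosen from the upper values of the list. Fgfr1 had 6.12, Smad1, which carries BMP signals, 6.42 and the Wnt antagonist Sfrp1 7.69. Ednra, an endothelin receptor, was lowest with 4.44. The 3 genes without a peak were Angpt2, Dkk4 and Fgf20.

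Chromatin and cell cycle genes had a peak in 13 of 14, and 1 further listed symbol was not matched in the reference. Their median enrichment of 6.59 was close to that of the 779 genes. Smarca5 (Snf2h), the ATPase of ISWI complexes, stood out with 10.9 from 186 treatment reads. Ctcf had 5.79, Cul4a 7.60, and Mcm5, a subunit of the replicative helicase, was lowest with 3.60. Asf1b, a histone chaperone gene, was without a peak. All 8 matrix, adhesion and polarity genes had one, with a median enrichment of 7.88. The lowest was 4.03, at the deubiquitinase gene Cyld. The 2 highest were Itgb1, encoding the integrin beta 1 chain, which had an enrichment of 12.8, and the polarity gene Pard3 with 12.5, with 10.4 and 11.7 input reads. Col4a1 and Col4a2, collagen IV genes that share a bidirectional promoter, shared 1 peak with 151 treatment reads and an enrichment of 7.10.

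The carboxylesterase and defensin clusters had nearly no peaks. Among 76 genes of the carboxylesterase (Ces), alpha-defensin (Defa), beta-defensin (Defb) and metallothionein (Mt) clusters, 4 had a peak. None of 20 Ces genes and none of 28 Defa genes did, and 1 of 24 Defb genes. That one, Defb39, had an enrichment of 22.3 from 35.6 treatment reads and 3.40 input reads in a LINE-1 element. Among 4 Mt genes, Mt1, Mt2 and Mt3 had low enrichments, of 3.91, 4.29 and 3.40, and Mt2 had 96.1 treatment reads. These families hold similar copies, and the authors kept unique alignments only, so reads that fit several copies were not counted. The part of this in the low counts was not tested.

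The extremes of the Chr. 8 list were of different kinds. The 5 highest enrichments were in peaks assigned to Unc5d (42.1), Cdh8 (22.3), Defb39 (22.3), Cox4i1 (21.9) and Gm15881 (21.5), and lay in LINE-1 elements, apart from the Cox4i1 peak. The assigned TSS was far for most of them, at 128664 bp for Unc5d, 17980 bp for Cox4i1 and 229321 bp for Gm15881, whose peak lay in an intron of Galntl6. All but the Cdh8 peak had 2 to 3.40 input reads, so the ratio rests on few reads. The Cdh8 peak, 50279 bp from the assigned TSS, had 188 treatment and 18.8 input reads and 5 motif matches. The most treatment reads, 433, were in a 10000 bp peak in Cilp2, a cartilage matrix protein gene, with 91.5 input reads, an enrichment of 8.23 and 10 matches. Map1s followed with 362 treatment reads, in exon 5 of 7. Ing1, encoding a reader of H3K4 methylation, had 296 over its 5′ UTR. The longest peak, 15650 bp, was assigned to Ocel1 with its centre in intron 2 of 3 of Nr2f6, an orphan nuclear receptor gene, and had 144 treatment reads and 19 motif matches. Next were 2810428I15Rik with 13200 bp, Isyna1 with 10350 bp, Cilp2 and, with 9050 bp, Ptger1.

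Peaks were not spread evenly along the chromosome. Cut into 5 stretches of up to 26 Mb from the start, it had 190, 129, 283, 268 and 453 peaks, with 251, 147, 227, 240 and 406 genes. The share of genes with a peak was 44.2% and 49.7% in the first 2 stretches and 66.5%, 70.0% and 68.0% in the other 3. The first stretch holds the defensin clusters. Input at peaks near the TSS was 11.03, 10.3, 10.7, 10.4 and 8.52 reads per kb. The last stretch, with the most peaks and the most genes, had the lowest value and the other 4 were close to each other. The longest stretch between neighbouring peaks, chr8:4807401-7787450, was 2980 kb long and held 2 genes, Slc10a2 and Gm17215. Another, of 1845 kb, lay over Csmd1, a very long gene for a complement regulator.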

How the data were processed

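The authors drew the same number of reads for each library, aligned them with STAR 2.4.2a to mm10, kept unique alignments only, called peaks against the input, kept those with at least 20 treatment reads and a 2-fold enrichment that 2 or more of the 3 ChIP libraries shared, and used HOMER 4.7 for annotation. The deposited read columns are a signal, described by the authors as means over the ChIP replicates. The divisors found on Chr. 8, from 1 to 27, are not explained by a mean over 3 libraries. Library totals were not used. The deposited enrichment is a ratio over input normalized by the authors for mapped reads. No use was made of the deposited p-value, 0 throughout. The distance of each peak to its TSS was taken from the authors. Its sign was read as positive downstream, since 1046 of 1309 Chr. 8 peaks whose transcript was found matched the reference (GRCm38) that way and 0 the other. This is the reverse of the legend in the deposited file.

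Each value of Chr. 8 was set beside those of the other 18 autosomes. Genes were 26182 with 45756 curated RefSeq transcripts. Named genes are those of the 5 highest peaks by enrichment, treatment reads, input reads per kb and length, the 5 genes with the most peaks, and 7 gene lists. Outside this rule, genes of the longest runs and gaps and those holding a named peak were picked with their values known. The members and lists were chosen with earlier results of these data known. Shares have 95% Wilson intervals. The scripts were tested on simulated data. The software was pandas 2.3.3, NumPy 2.4.6, pysam 0.24.0 and matplotlib 3.10.9 under Python 3.11.15.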

Additional observations from a re-analysis of the deposited data

How the results depend on the processing

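Values are log2 ratios of Chr. 8 to the mean of the other autosomes. Of 55 alternatives, 36 moved the ratio by less than the SD among autosomes, 13 by more, and 6 changed its sign. Input per kb, 0.15 over all peaks, was 0.0361 from summed reads over summed lengths, -0.00161 beyond 5 kb, 0.00492 beyond 5 kb outside LINE-1 0.31 for TSS peaks of 1500 to 2400 bp, and with a divisor of 7 it was 0.28 over all peaks and 0.32 near the TSS. Treatment per kb, -0.065 over all peaks, was 0.0635 at an enrichment of at least 5, 0.0798 within 5 kb, 0.12 for TSS peaks of 1500 to 2400 bp, -0.00564 for all peaks of that length, -0.15 beyond 5 kb with or without LINE-1, and with a divisor of 7 it was 0.0598 over all peaks and 0.0965 near the TSS. Peak density, 0.58 per Mb, was 1.25 per 100 genes beyond 5 kb outside LINE-1. The TSS share, -0.25 at 5 kb, was -0.36 at 1 kb. Enrichment, -0.15, was -0.0724 at 5 and over. The share of intron and intergenic peaks, 0.28, was 0.69 without LINE-1, and the motif share, 0.12, was 0.21 in the central 200 bp. Alternatives on the divisor, on length within 5 kb, and on peaks beyond 5 kb outside LINE-1 were added with the data seen. So were peaks per 100 genes within 5 kb, enrichment within 5 kb and motif matches per kb. The cause was not tested. The deposited list holds means only, so leaving out each ChIP library was not run. The authors drew equal numbers of reads per library, but the list gives no total, and peaks with few input reads have uncertain ratios. No paired analysis was possible because no value per library is in the list.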

Other observations

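LINE-1 elements held 155 Chr. 8 peaks. They were 12.2 per 100 genes against 9.46 ± 3.42 on the other autosomes, rank 4 of 19, and 11.7% of the Chr. 8 peaks against 14.3 ± 5.38%, rank 12. The family L1Md_T, a young LINE-1 family of the mouse, held 80 of them with a median enrichment of 7.04, L1Md_F2 held 34 with 3.57 and L1Md_A 15 with 5.47. The medians on the other autosomes were 7.55, 3.51 and 3.83. Intracisternal A particle sequence (IAPEz-int) held 6 peaks with a median enrichment of 4.45.

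Of the 5 peaks with the most input reads per kb, 3 were in LINE-1 elements, assigned to Cdh11 (99.2 reads per kb, enrichment 2.55), Mir28c (40.6, 2.20) and Aga (39.5, 2.60), and 1 in a ribosomal RNA repeat assigned to Myom2 (54.8, 2.5). The other, assigned to 6820431F20Rik, had 157 input and 353 treatment reads, the third highest treatment value on Chr. 8, at an enrichment of 4.89.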
